A study of Mus musculus with 24 samples.

Results

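Hrk and the BCL2 family were followed here as a group of 10 genes: the BH3-only genes Hrk, Bcl2l11, Bmf, Bik, Bid and Bad, the effector gene Bak1, and the survival genes Mcl1, Bcl2l1 and Bcl2. The members were taken by symbol from a polysome sequencing table of 13504 genes. They are family members that are not classical p53 targets, and all 10 symbols were found, 8 of them with an average expression of at least 3 on the deposited log scale. Hrk was put in the group because of its value in the Rps26Tir1 line, so the values of that line chose the group and are given as a description. The FreeTir1 line played no stated part in the choice.

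BCL2 family proteins meet at the outer membrane of mitochondria. Survival members such as MCL1, BCL-XL and BCL2 hold the effectors BAK and BAX inactive. BH3-only proteins carry a short helix, the BH3 domain, that fits a groove of the survival members or acts on the effectors, and active effectors open the membrane and let out cytochrome c. Embryonic stem cells are known as cells that enter apoptosis readily.

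All libraries came from mouse E14 embryonic stem cells in which the ribosomal protein RACK1 was fused to an auxin-inducible degron (AID). Indole-3-acetic acid (IAA), the plant hormone auxin, makes the receptor TIR1 bind the degron, and the fused protein is then degraded. The Ribo-Tweezer line, called Rps26Tir1, had TIR1 joined to the ribosomal protein RPS26, and the control line, called FreeTir1, had TIR1 free of the ribosome. Both lines received IAA or DMSO for 12 h. Free, low and heavy translation fractions were then sequenced as polyadenylated RNA, giving 12 groups with 2 libraries each and 24 libraries in all. The labels do not say whether a line is 1 clone or whether replicates came from separate cultures, so p-values cover the spread of these libraries alone, which may be technical.

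For each gene and line the authors' deposited table compares IAA with DMSO by a log fold change, read as log2, with its p-value before and after adjustment, beside the average expression of the gene. Library values were not analysed here, so depth is unknown, and neither fraction levels nor a spread between replicates can be given. The header names neither the numerator of the fold change nor the fractions that entered it. Values are therefore called positive or negative, and positive would mean higher with IAA if treatment was set over control. Amount of transcript and ribosome loading are not separated, and fewer cells expressing a gene and less RNA per cell cannot be told apart. Standard errors and 95% intervals were worked back from the deposited p-values. The 8 embryonic stem cell markers examined, had average expression from 8.33 to 10.8 in the authors' deposited table. Of 6 primitive endoderm markers the highest, Dab2, stood at 1.996 in the authors' deposited table. Of 6 fibroblast markers Col1a2 and Col3a1 were not among the genes analysed here, and Vim, Thy1, Pdgfrb and Col1a1 stood at 5.36, 3.53, 2.74 and 0.15 in the authors' deposited table. Of these, the authors' deposited table has Col1a1, the lowest expressed, past the threshold under Rps26Tir1 at -1.42 (adjusted p = 0.0254). The others did not pass and went both ways in that line, with Thy1 at -0.28, Vim at 0.13 and Pdgfrb at 0.38. The part of such cells in the results was not tested.

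All members encode a BH3 core, which was located in the coding sequence of the transcript that each row of the table names. The search asked for a leucine codon, any 3 codons, a glycine, alanine or serine codon and an aspartate codon. Alanine and serine were allowed after a search with glycine alone had left out Bmf and Bad. Each coding sequence held 1 match. Stretches of 42 bases around it are shown because this is the element that defines the family, and the capitals mark the codons of the leucine, of the small residue and of the aspartate. Sequences are from GENCODE M21 transcripts (GRCm38), 5′ to 3′ on the coding strand.
Hrk: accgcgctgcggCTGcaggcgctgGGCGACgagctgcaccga
Bcl2l11: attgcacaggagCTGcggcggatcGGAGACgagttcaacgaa
Bmf: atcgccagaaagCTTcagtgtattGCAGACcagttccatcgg
Bik: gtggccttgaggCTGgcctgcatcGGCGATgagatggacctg
Bid: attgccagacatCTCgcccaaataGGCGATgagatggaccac
Bad: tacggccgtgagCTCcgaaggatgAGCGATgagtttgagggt
Bak1: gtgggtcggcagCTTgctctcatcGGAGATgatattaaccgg
Mcl1: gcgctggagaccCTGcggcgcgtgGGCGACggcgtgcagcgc
Bcl2l1: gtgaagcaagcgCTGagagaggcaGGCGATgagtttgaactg
Bcl2: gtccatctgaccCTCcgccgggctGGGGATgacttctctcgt

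The Hrk stretch lies at chr5:118169879-118169920 on the plus strand, within 1 exon, and the leucine is encoded by codon 37 of 92. At the base level the Bcl2l11 stretch was nearest to it, with 25 of 42 bases the same, and the Bcl2 stretch was farthest, with 17. GC content of the stretches was 81.0% in Mcl1 and 76.2% in Hrk, and at most 64.3% in the other 8.

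Hrk encodes Harakiri, a BH3-only protein that binds survival members and is best known from neurons. It lies on chromosome 5 (118164648 to 118189478, GRCm38). In the authors' deposited table its log fold change was 0.74 in the Rps26Tir1 line, a fold of 1.67 (standard error 0.136, 95% interval 0.46 to 1.02). The authors' deposited table lists it at adjusted p = 0.00609, and Hrk was 15th by p-value among the 13504 genes analysed here. For FreeTir1 the authors' deposited table gives Hrk 0.13 (standard error 0.138, 95% interval -0.16 to 0.41) with adjusted p = 0.911. The FreeTir1 interval spans 0, and the Rps26Tir1 value is the one that chose the gene. Subtracting FreeTir1 from Rps26Tir1 left 0.62 (standard error 0.194, 95% interval 0.22 to 1.01). Adjusted over all genes, this difference computed from the authors' deposited table had adjusted p = 0.402 and did not pass the threshold. It is a description, because the larger of its 2 values chose the gene.

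Among genes positive in the Rps26Tir1 line with adjusted p under 0.05 there, and with an average expression of at least 3, Hrk was 11th of 96 by size. The deposited average expression is the same for both lines. Hrk itself has 3.22 for average expression in the authors' deposited table, just above that minimum. The members on either side of the threshold of 0.05 were Hrk and Bik, for which the authors' deposited table has adjusted p of 0.00609 and 0.0776. Hrk was the 1 member called, where 1.64% of all genes were called in either direction and 1.1% as positive. The group was chosen on this contrast, so nothing is read from that count.

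**Figure D1:**
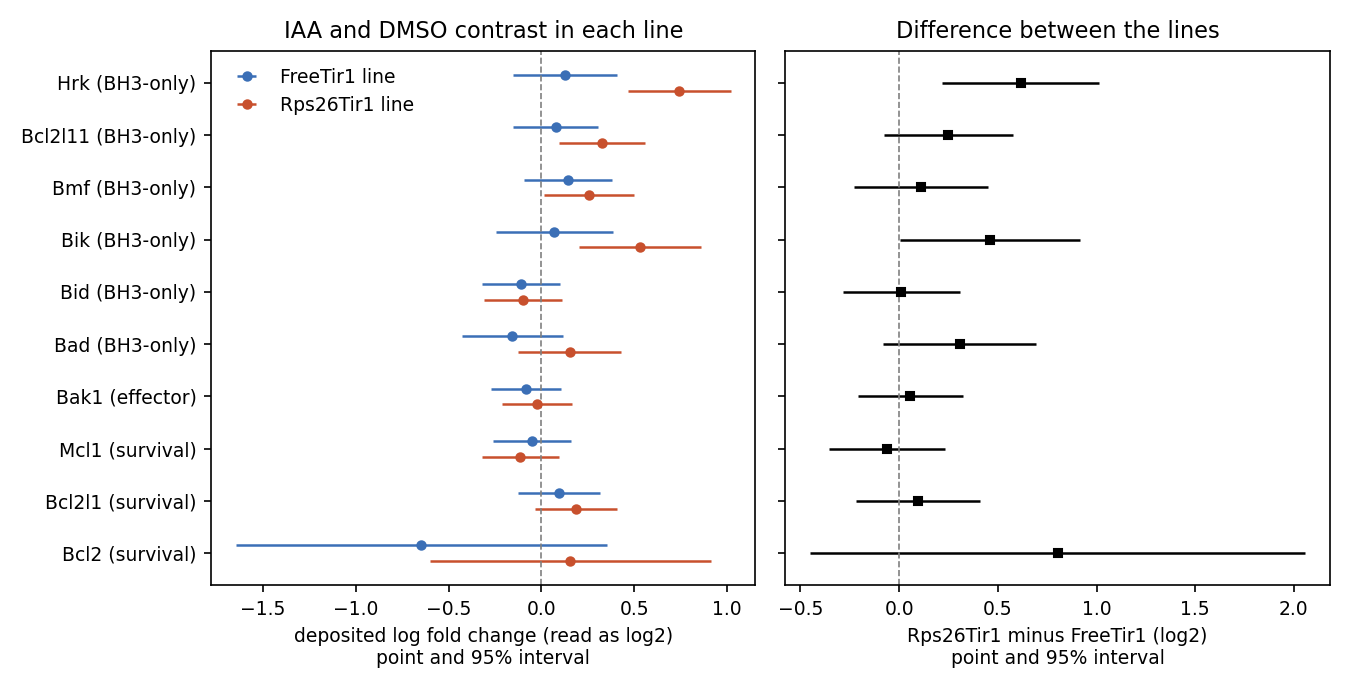
Left, deposited log fold change (log2) of each member in the FreeTir1 line (blue) and the Rps26Tir1 line (red) with 95% intervals worked back from the p-values. Right, the Rps26Tir1 minus FreeTir1 difference (log2) with its 95% interval: Hrk and Bik have intervals above 0 before any adjustment over genes, Bid lies at 0.01, and Bcl2 has the widest interval.

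Bik encodes a BH3-only protein of the endoplasmic reticulum. It lies on chromosome 15 (83526862 to 83544634). Under Rps26Tir1 the authors' deposited table gives it 0.53 (standard error 0.16, 95% interval 0.20 to 0.86) with adjusted p = 0.0776. Under FreeTir1 the authors' deposited table gives Bik 0.07 (standard error 0.155) with adjusted p = 0.968. Bik therefore had the second-highest value of the group in the Rps26Tir1 line, without passing the threshold. The difference between the lines was 0.46 with a 95% interval of 0.01 to 0.92, and its test on the authors' deposited table, adjusted over all genes, gave adjusted p = 0.799. Bik was weakly expressed, with an average expression of 1.85 in the authors' deposited table.

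Bcl2l11 encodes BIM, which binds all survival members and can act on effectors. It lies on chromosome 2 (128126038 to 128162547). In the authors' deposited table it had 0.32 in the Rps26Tir1 line (standard error 0.113) with adjusted p = 0.130, and 0.08 in the FreeTir1 line (standard error 0.112) with adjusted p = 0.937. The 95% interval of the difference ran from -0.08 to 0.57. Bmf, on the same chromosome (118528757 to 118549687), encodes a BH3-only protein that is held at the cytoskeleton through dynein light chain. In the authors' deposited table its values were 0.25 (adjusted p = 0.270) in the Rps26Tir1 line and 0.14 (adjusted p = 0.856) in the FreeTir1 line. For Bmf the lines lay close together, with a difference of 0.11 and a 95% interval of -0.23 to 0.45. Neither Bcl2l11 nor Bmf passed the threshold in either line.

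Bid and Bad are BH3-only genes whose proteins are governed mainly after translation. BID is cleaved by caspase-8, which links death receptors to mitochondria, and BAD is phosphorylated by survival kinases and then held by 14-3-3 proteins. Bid (chromosome 6, 120891930 to 120916853) had -0.10 under Rps26Tir1 and -0.11 under FreeTir1 in the authors' deposited table, where the adjusted p were 0.674 and 0.894. The lines were at nearly the same value for Bid, and the 95% interval of their difference, -0.29 to 0.31, bounds how far apart they could be. Bad (chromosome 19, 6941861 to 6951899) had 0.15 under Rps26Tir1 and -0.16 under FreeTir1 in the authors' deposited table, where the adjusted p were 0.620 and 0.873. The signs for Bad were opposite, yet each interval held 0 and the difference of 0.31 computed from the authors' deposited table had a 95% interval of -0.08 to 0.69 and adjusted p = 0.941.

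Of the 6 BH3-only members, 5 were positive under Rps26Tir1 (median 0.29), where 53% of all genes were positive. Under FreeTir1, 4 were positive (median 0.07), where 48.6% of all genes were. The medians of all genes were 0.01 and -0.0044. At an unadjusted p under 0.05, 4 of the 6 were positive in the Rps26Tir1 line, namely Hrk, Bik, Bcl2l11 and Bmf, where 9.55% of all genes were called in that direction. In the FreeTir1 line none of the 10 members had an unadjusted p under 0.05, where 6.69% of all genes did, 2.72% as positive and 3.98% as negative. The smallest unadjusted p there was 0.195, for Bcl2 in the authors' deposited table. The Rps26Tir1 count comes from the contrast that chose Hrk, and nothing is read from it. By the authors' adjusted p, 0 members passed in the FreeTir1 line, as did 0% of all genes.

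Bak1 encodes the effector BAK, which forms the pore in the outer membrane. It lies on chromosome 17 (27019810 to 27029009). Its values in the authors' deposited table were -0.03 in the Rps26Tir1 line (standard error 0.0923, adjusted p = 0.923) and -0.08 in the FreeTir1 line (standard error 0.0920, adjusted p = 0.913). Its interval in the Rps26Tir1 line ran from -0.21 to 0.16. Bak1 was among the well-expressed members, with an average expression of 6.84 in the authors' deposited table.

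Mcl1 encodes a short-lived survival protein. It lies on chromosome 3 (95658788 to 95663176) and had the highest average expression of the group, 9.19 in the authors' deposited table. In the authors' deposited table it had -0.12 in the Rps26Tir1 line (standard error 0.101, adjusted p = 0.615) and -0.05 in the FreeTir1 line (standard error 0.102, adjusted p = 0.964). Mcl1 was the 1 member with a negative difference between the lines, at -0.06 with a 95% interval of -0.36 to 0.23. Bcl2l1, the gene of the survival protein BCL-XL, lies on chromosome 2 (152780668 to 152831728). It had 0.19 (adjusted p = 0.390) under Rps26Tir1 and 0.09 (adjusted p = 0.915) under FreeTir1 in the authors' deposited table. The difference for Bcl2l1 was 0.10 with a 95% interval of -0.22 to 0.41.

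Bcl2, the founding survival gene, lies on chromosome 1 (106538178 to 106714274) and was close to the lower end of the table, with an average expression of -0.42 in the authors' deposited table. In the authors' deposited table it had 0.15 in the Rps26Tir1 line (standard error 0.370) and -0.65 in the FreeTir1 line (standard error 0.488), and its adjusted p were 0.881 and 0.846. Its difference of 0.80 was the largest of the group in size, but the 95% interval ran from -0.45 to 2.06. No change of Bcl2 was detectable at this precision. Among survival members 2 of 3 were positive in the Rps26Tir1 line and 1 of 3 in the FreeTir1 line, where 53% and 48.6% of all genes were.

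**Figure D2:**
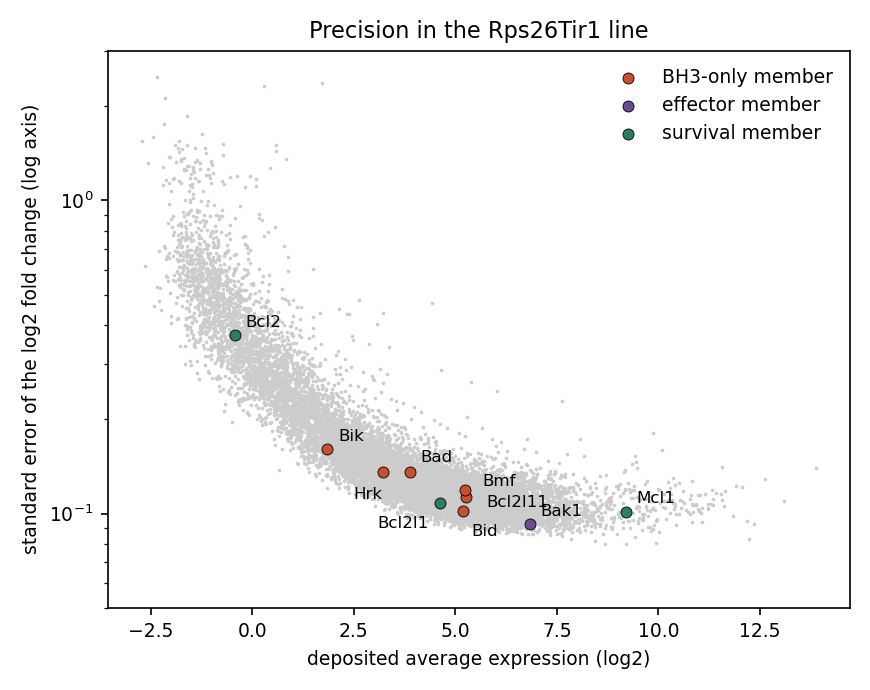
Standard error of the log2 fold change in the Rps26Tir1 line (log axis) against deposited average expression (log2), with all genes in grey and members in colour. Bcl2, at 0.370, and Bik, at 0.16, have the largest errors of the group, and the other 8 members lie between 0.0923 and 0.136.

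In the test of the difference between the lines, adjusted over all 13504 genes, 0 of the 10 members had adjusted p under 0.05, where 0.00741% of all genes did. The 9 members other than Hrk had adjusted p between 0.799 and 0.9998. At an unadjusted p under 0.05, Hrk and Bik had a positive difference and no member a negative one, where 4.15% of all genes had a positive difference and 6.18% either. Of all 10 members 9 had a positive difference, where 54.1% of all genes did, and the median was 0.18 against 0.02 for all genes. These values include Hrk and use the line in which it was chosen, so they describe the group only.

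**Figure D3:**
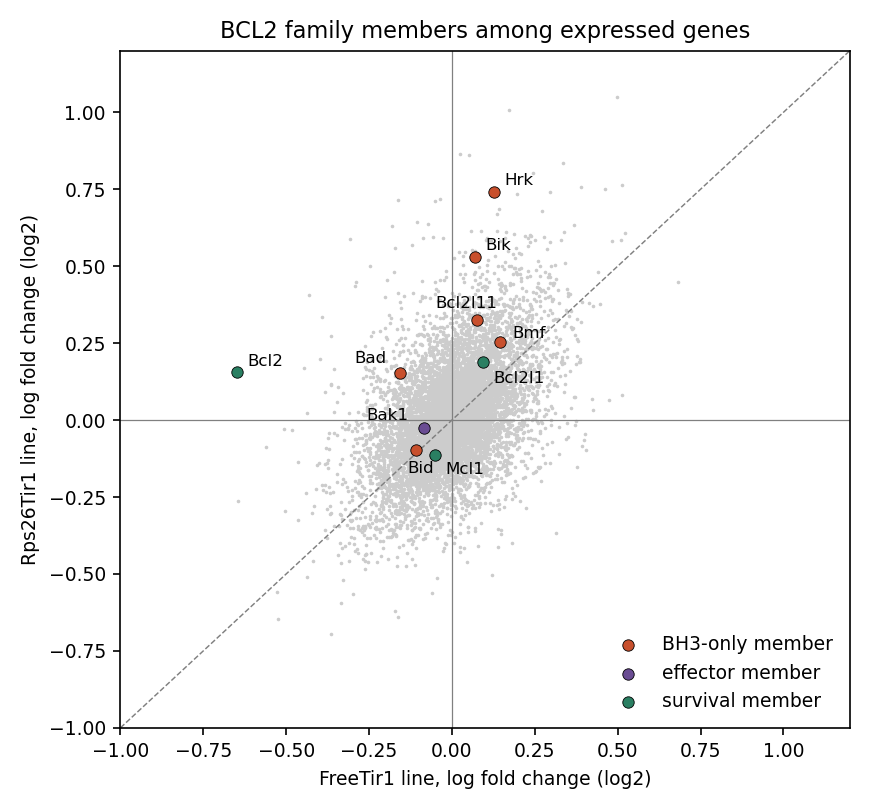
Log fold change (log2) in the Rps26Tir1 line against that in the FreeTir1 line, with the genes of average expression of at least 3 in grey (4 of 8633 fall outside the axes) and all 10 members in colour by role. The dashed line marks equal values: Hrk and Bik stand above it, Bid lies on it, and Bcl2 stands apart to the left at -0.65 with a standard error of 0.488.

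Average expression was compared between members only after subtracting the log2 of transcript length in kilobases, on the assumption that the deposited scale was not already divided by length. On that scale the levels ran from 7.42 for Mcl1 through 5.58 for Bak1 and 4.07 for Bid to 3.35 for both Bcl2l1 and Bad. Bmf stood at 3.03, Bcl2l11 at 2.92 and Bik at 1.94, followed by Hrk at 0.79 and Bcl2 at -3.27. No spread over libraries can be given for these levels, so neighbours in the order cannot be called different. Hrk was thus among the scarcer members per length, and the survival gene Mcl1 was the most abundant.

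The members differed in transcript structure, which played no part in choosing them. Coding sequences were short in all 10, from 279 bases in Hrk to 996 in Mcl1, below the median of 1383 bases over all genes. The Hrk transcript had a leader of 35 bases, against a median of 161, and a trailer of 5068 bases, longer than in 96.9% of genes. Bmf shared that form, with a leader of 25 and a trailer of 3801 bases. Bcl2l11, with 227 and 4218 bases, had the long trailer but not the short leader. Bik was compact at 942 bases in all, with a trailer of 409 bases. A link between transcript structure and the values in the Rps26Tir1 line was not tested. ATG triplets in the leader were absent from Hrk, Bmf, Bik, Bid and Mcl1. Bcl2l11, Bad and Bcl2l1 had 1 each, Bak1 had 4 and Bcl2 had 11 in a leader of 1394 bases.

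Hrk was the 1 member whose last exon junction lay downstream of its stop codon, 67 bases past it. In the other 9 the last junction lay before the end of the stop codon, at positions from -138 in Bcl2l1 to -12 in Bid. A junction more than 50 bases past the stop codon was annotated for 52 of 13504 genes, or 0.385%. A junction so placed is textbook background for recognition of an mRNA by nonsense-mediated decay, and no test of decay was made.

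**Figure D4:**
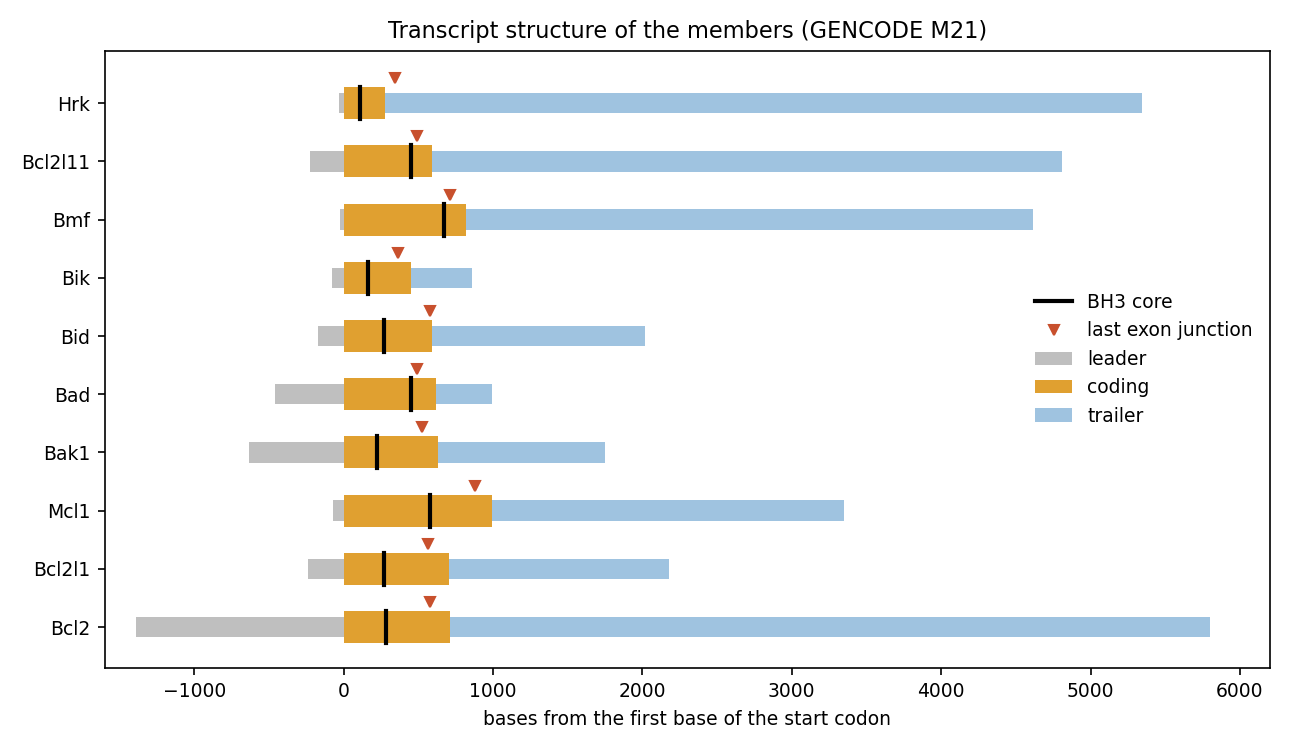
Leader (grey), coding sequence (yellow) and trailer (blue) of the transcript each member's row names, in bases from the start codon, with the BH3 core as a black bar and the last exon junction as a triangle. The triangle of Hrk sits 67 bases past the coding sequence, and those of the other 9 members sit within it.

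Little of the Hrk sequence is shared with other genes: 0.635% of the 31-base stretches of its transcript occur in transcripts of other genes, and the annotation places no other gene over it. For the other members this share was at most 0.919%, in Bcl2l11. Exons of Bid share 628 bases with Bcl2l13, a mitochondrial BCL2-like gene on the opposite strand. Exons of Bad share 524 bases with Gpr137, and exons of Bak1 overlap Ggnbp1, both on the opposite strand. Exons of Bcl2 share 558 bases with an antisense gene. Whether counting used the strand is not given in the sources used here, so the values of these 4 members may include reads of their partners. Bcl2l13 had 0.09 (adjusted p = 0.733) under Rps26Tir1 and -0.06 (adjusted p = 0.962) under FreeTir1 in the authors' deposited table.

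The genes whose pair of fold changes lay nearest to that of Hrk were sought among 8477 named genes with an average expression of at least 3. The measure was the Euclidean distance over the 2 lines, so the likeness rests on 2 values per gene. Distances of the 5 nearest genes, at most 0.131, were below the standard errors of Hrk, 0.136 and 0.138. Their order is therefore not resolved. Adarb1, an RNA-editing adenosine deaminase gene, was nearest at a distance of 0.0589, with 0.69 under Rps26Tir1 and 0.14 under FreeTir1 in the authors' deposited table. Edrf1, at a distance of 0.0681, had 0.73 and 0.19 in the authors' deposited table, and Zfp866, a zinc finger gene, had 0.67 and 0.14. Ddias, whose protein suppresses apoptosis after DNA damage, had 0.62 and 0.14 in the authors' deposited table at a distance of 0.127, and Ticrr, needed to start DNA replication, had 0.80 and 0.24.

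Other apoptosis genes were taken from 7 lists holding 83 symbols, of which 77 were measured. In the Rps26Tir1 line 44 values were positive and 33 negative, where 47% of all genes were negative, and 1 of the 77 had an adjusted p under 0.05, where 1.64% of all genes did. At an unadjusted p under 0.05, 11 were positive and 5 negative, or 20.8% together, where 16.3% of all genes were counted and 6.72% as negative. Their median was 0.02, beside 0.01 for all genes. Under FreeTir1, 0 passed by adjusted p, where 0% of all genes did, and 1 by unadjusted p, where 6.69% did.

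BCL2 family genes outside the group, which include the p53-linked Bbc3, Pmaip1 and Bax, had 11 of 15 members measured. None passed by adjusted p in either line, where 1.64% of all genes passed under Rps26Tir1 and 0% under FreeTir1. Positive values numbered 8 under Rps26Tir1 (median 0.10) and 5 under FreeTir1 (median -0.02), where 53% and 48.6% of all genes were positive. Bcl2l14 had 0.61 (adjusted p = 0.220) and Bbc3, the gene of PUMA, 0.24 (adjusted p = 0.279) under Rps26Tir1 in the authors' deposited table. Pmaip1, the gene of NOXA, had 0.16 and 0.15 under Rps26Tir1 and FreeTir1 in the authors' deposited table, and Bnip3l, a mitophagy receptor gene, 0.10 and -0.02. Bbc3 and Pmaip1 stood below Hrk and Bik in the Rps26Tir1 line, with standard errors of 0.112 for Bbc3 and 0.101 for Pmaip1. Hrk was chosen for its value in that line, so nothing is read from its place above them. The remaining BH3-only members Bcl2l11, Bmf, Bad and Bid stood at 0.32, 0.25, 0.15 and -0.10 there. Differences between genes were not tested.

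The list of the apoptosome, caspases and mitochondrial death factors had 7 of 14 members positive under Rps26Tir1 (median 0.01), where 53% of all genes were. None passed by adjusted p. Htra2, a protease released from mitochondria, had -0.47 (adjusted p = 0.126) in the authors' deposited table. Casp2 stood at 0.28 (adjusted p = 0.240) and Casp8, the caspase that cleaves BID, at -0.46 (adjusted p = 0.373) in the authors' deposited table. Inhibitor of apoptosis genes had 5 of 6 positive in each line, with medians of 0.05 under Rps26Tir1 and 0.13 under FreeTir1. Of all genes 53% and 48.6% were positive in these lines. None of the 6 passed in either line, where 1.64% of all genes passed under Rps26Tir1 and 0% under FreeTir1. Birc7 had 1.38 (standard error 0.545, adjusted p = 0.183) and Xiap, an inhibitor of caspases, 0.10 (adjusted p = 0.714) under Rps26Tir1 in the authors' deposited table. Birc6 stood at 0.07 and Birc3 at -0.10 in the authors' deposited table.

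Death receptor genes had 5 of 7 measured members positive, with a median of 0.05 and none passing in the Rps26Tir1 line. Of all genes 53% were positive in that line and 1.64% passed. The kinase gene Ripk1 had 0.58 (adjusted p = 0.116) under Rps26Tir1 and 0.27 under FreeTir1 in the authors' deposited table. Cflar, an inhibitor of caspase-8 activation, had 0.16 in each line, and Tradd and Fas had 0.10 and -0.28 under Rps26Tir1, in the authors' deposited table. Binding partners of the family were mostly negative, with 9 of 12 below 0 in each line, where 47% and 51.4% of all genes were, and medians of -0.05 and -0.08 in the Rps26Tir1 and FreeTir1 lines, and none passed. Bcap31, an endoplasmic reticulum protein that binds BCL2, had -0.29 (adjusted p = 0.127), Bag4 -0.21 (adjusted p = 0.279), C1qbp -0.17 and Vdac2, a channel that holds BAK, -0.22 (adjusted p = 0.313) in the authors' deposited table.

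Turnover of MCL1 and BIM was covered by 9 measured genes, of which 6 were positive in the Rps26Tir1 line, 8 in the FreeTir1 line and 0 called. The shares of all genes in these lines were 53% and 48.6% positive, and 1.64% and 0% called. Fbxw7, a substrate receptor of a ubiquitin ligase that acts on MCL1, had 0.37 (adjusted p = 0.138), and Huwe1, a ligase gene for MCL1, 0.11 (adjusted p = 0.624), in the authors' deposited table. Usp13 had 0.21 in the authors' deposited table. Trim17, another ligase gene of the list, was weakly expressed at -0.84 and had 1.28 (standard error 0.429) under Rps26Tir1 and 0.91 (standard error 0.338) under FreeTir1 in the authors' deposited table. Shares of 16.6% to 28.5% of the 31-base stretches of Birc3, Cflar, Vdac2 and Bnip3l also occur in other genes, so their values are uncertain.

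Among 18 transcriptional and kinase regulators of BH3-only genes 10 were positive and 8 negative in each line. Their medians were 0.0032 under Rps26Tir1 and 0.0058 under FreeTir1, beside 0.01 and -0.0044 for all genes. Over all genes 53% were positive under Rps26Tir1 and 48.6% under FreeTir1, and 1.64% and 0% passed by adjusted p. Myc, whose product can sensitise cells to apoptosis, was the 1 that passed, with 1.01 (standard error 0.171, adjusted p = 0.00386) under Rps26Tir1 in the authors' deposited table. Under FreeTir1 the authors' deposited table gives Myc 0.17 (adjusted p = 0.884). The difference of 0.84 computed from the authors' deposited table had adjusted p = 0.310. Jun, the AP-1 component through which JNK signalling has been tied to Hrk and Bcl2l11 in neurons, had values in the authors' deposited table of 0.56 (adjusted p = 0.132) under Rps26Tir1 and -0.17 (adjusted p = 0.946) under FreeTir1. Foxo1, a forkhead factor that can activate Bcl2l11, had values in the authors' deposited table of 0.35 (adjusted p = 0.120) under Rps26Tir1 and 0.15 (adjusted p = 0.867) under FreeTir1. Atf4, the stress response factor, had values in the authors' deposited table of 0.30 (adjusted p = 0.102) under Rps26Tir1 and -0.03 (adjusted p = 0.980) under FreeTir1. Apart from Myc, no regulator on the list passed the threshold. At an unadjusted p under 0.05 in the Rps26Tir1 line, 4 of the 18 were positive and 1 negative, where 9.55% and 6.72% of all genes were. The named regulators are those with the smallest p-values there, and a link from them to Hrk was not tested.

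**Figure D5:**
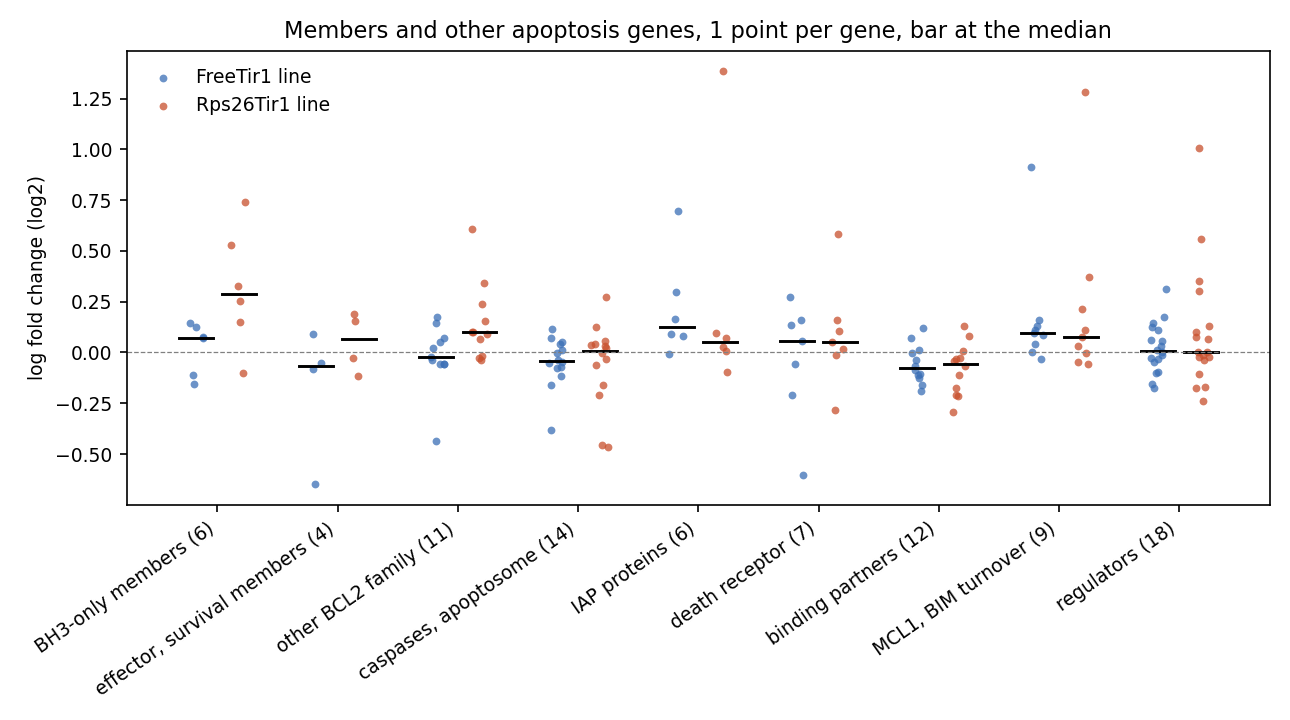
Log fold change (log2) of members and of the 7 other apoptosis lists, with 1 point per gene in the FreeTir1 line (blue) and the Rps26Tir1 line (red), the number of genes in brackets and a bar at each median. The red bar of the BH3-only members is at 0.29, and those of the 7 lists lie between -0.05 and 0.10. The BH3-only members include Hrk, which was chosen by its value in the Rps26Tir1 line, so nothing is read from the height of that bar.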

How the data were processed

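Mouse E14 embryonic stem cell libraries of polyadenylated RNA from polysome fractions were made with Trizol and paired-end TruSeq kits, per the labels' protocols. The sources used here name no aligner, counting method, build or normalization. The file analysed is the authors' deposited comparison table. Per the file headers it holds a log fold change and an average expression, read as log2 although no base is stated, and a p-value and adjusted p-value per gene and line. The deposited fold changes and p-values were used as they are, and per-library tests planned for such data were not possible. The smallest deposited p-value of the Rps26Tir1 line and its adjusted value imply an adjustment over 15864 tests. Shares of all genes, and adjusted p computed here, cover the 13504 genes analysed, so deposited and computed adjusted p rest on different sets.

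Column names are those of limma. Standard errors were recovered by inverting the deposited p-values on a t distribution with 29 degrees of freedom. Between 8 and 60, this value gave the narrowest interquartile range for the between-line ratio of errors, over genes at or above 3 in average expression. The lines were compared by their difference over the root of the summed squared errors, two-sided, taken as independent, with Benjamini-Hochberg adjustment over 13504 genes. The procedure was tested on data simulated with 29 degrees of freedom and independent errors. That run cannot check whether the real data meet these assumptions. Transcript features came from GENCODE M21 (GRCm38), matched for 13504 of 13504 rows by transcript identifier. This release may differ from the authors' annotation. Calculations used Python 3.11.15, scipy 1.17.1 and Biopython 1.88.

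Members and gene lists were chosen with earlier results of these data known. Besides all members, up to 4 genes of each list with the smallest p in the Rps26Tir1 line were named, any that passed the threshold, and the 5 genes nearest to Hrk. A gene named by this rule is not reported here. Alternatives were another adjustment set, a filter on average expression, median centring, removal of a trend in length, GC content and expression, 20 degrees of freedom, errors correlated at 0.3 and a threshold of 0.1.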

Additional observations from a re-analysis of the deposited data

How the results depend on the processing

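Over 156 recomputed values, the direction changed in 1, which was past the threshold in neither case, and a count moved in 2. Only median centring and removal of the trend alter a fold change or a difference. The other alternatives could not change a direction, and counts have none, so the number of unchanged directions is no measure of stability. Hrk kept its call in the Rps26Tir1 line under all 4 alternatives, with values from 0.68 to 0.74 and adjusted p from 0.00622 to 0.0157. Values of that line chose Hrk, so the kept call is a description. In the test of the difference between the lines, Hrk passed under none of 5 alternatives, with adjusted p from 0.0840 to 0.9998. The difference for Bid turned from 0.0099 to -0.0083 with median centring. The count of members called in the Rps26Tir1 line went from 1 to 2 at an adjusted p of 0.1, which adds Bik. The share of all genes at that threshold was not computed and this contrast chose the group, so nothing is read from the count. The count of other apoptosis genes with a difference between the lines went from 0 to 1, Myc at adjusted p = 0.0471, with errors of the lines correlated at 0.3, where the count over all genes went from 1 to 46. That count became 0 with 20 degrees of freedom and with average expression of at least 3. In the Rps26Tir1 line the count over all genes, 222, became 90 with that filter and 131 with the trend removed; the causes were not tested. Bik and Bcl2 have no value under the filter. No paired analysis was possible because the table gives no values per library, and for the same reason no replicate could be left out. Depth is unknown, so precision rests on the deposited p-values, and errors grow below an average expression of 3.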

Other observations

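Like Hrk, 51 other genes have an annotated transcript whose last exon junction lies more than 50 bases past the stop codon. Hrk set the choice of this class and is left out of its counts. In the Rps26Tir1 line 1 of the 51 had a deposited adjusted p under 0.05, or 1.96%, which is near the 1.64% of all genes. It was Lats1, a kinase gene of the Hippo pathway, named after its values were seen. Lats1, with its junction 270 bases past the stop codon, had 0.61 (standard error 0.130, adjusted p = 0.0145) under Rps26Tir1 and 0.06 (adjusted p = 0.969) under FreeTir1 in the authors' deposited table. Over the 51 genes the median was 0.02 under Rps26Tir1, with 26 positive, and 0.05 under FreeTir1, with 30 positive, beside medians over all genes of 0.01 and -0.0044.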
